A study of Homo sapiens with 6 samples.

Results

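HES1, HES4, HEY1, HEY2, HEYL, NRARP, LFNG, MFNG, RFNG and DTX1 are genes that Notch signaling switches on or whose products tune the Notch receptor. They were taken as every gene spot whose name in the array files was 1 of these 10 symbols, which gave 12 probes of 34127 on the array and 10 genes of 25940. RNA of 2 isogenic human breast cancer lines was compared on 6 single-dye Agilent arrays, 3 for each line. Both lines descend from T47Dco, a luminal breast cancer cell line, grown as xenografts in ovariectomized NSG mice.

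pLUM, the pure luminal line (CLD3+ CD49f-, ER+PR+CK5-), came from a tumor of an estradiol (E) treated mouse and was grown in E for about 2 months before the initial sort and about 2 months after it. Before profiling, pLUM cells received 1 nM E for 72 h. pLB, the pure luminobasal line (CLD3- CD49f+, ER-PR-CK5+), came from a tumor of a mouse given E plus progesterone and was kept with E withdrawn (EWD) for about 2.5 months before and about 2 months after the initial sort. Effects of line and of hormone thus cannot be told apart on these arrays. Each line goes back to a single tumor. RNA came from triplicate sorts of fixed cells stained for CK5, and the labels do not say which CK5 fraction was hybridized. Neither the labels nor the description of the profiling says that the sorts came from separate cultures, so that the p-values measure only the spread between sorts, which may be technical.

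A Notch receptor that binds a Delta or Jagged ligand on a neighboring cell is cut by ADAM proteases and then by gamma-secretase, and the freed intracellular domain joins RBPJ and MAML coactivators on DNA. HES and HEY genes, which encode repressors of the basic helix-loop-helix family, are the classical targets, and NRARP is a target whose product dampens the same complex. Fringe enzymes (LFNG, MFNG, RFNG) add sugar to O-fucose on the receptor and so shift which ligands it responds to, and DTX1 encodes a Deltex ubiquitin ligase that binds the receptor. In the mammary gland, Notch signaling is known for its part in the choice between luminal and basal fates.

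Values below are log2 signals minus the log2 of the 75th percentile of their array, and levels are compared only within a probe. A probe that 3 or more of the 6 arrays measured well above background was tested with limma, and a difference was called at 2-fold or more with a Benjamini-Hochberg adjusted p under 0.05 over all 23105 tested probes. Where a gene had more than 1 tested probe, the brightest represented it. The 75th percentile lay between 449 and 869 intensity units, and no spot was saturated. Array to array correlation across probes was 0.972 to 0.991 within a line and 0.780 to 0.806 between lines. The markers of the sort fitted the labels, with log2 differences, pLB minus pLUM, of -6.70 for CLDN3 and 4.42 for ITGA6, which encodes CD49f. KRT5 was at least 1754-fold higher in pLB. By representative probe, of 8 luminal markers 7 were called lower, and of 8 luminobasal markers 8 were called higher. The probes of KRT8 differed in sign. Its representative probe (-1.26) and a dimmer one (-2.57) were called lower, and another dimmer one (1.89) was called higher. Among all tested genes 23% were called lower and 22.7% higher. KRT5, TP63, SNAI2 and KRT14 passed the filter on dim probes through pLB alone, and PGR through pLUM alone. These genes had to differ, so that the marker counts are a description only. Of 8 markers of immune, endothelial and stromal cells, CD68 (1.52) and ACTA2 (2.23) were called higher in pLB. PECAM1 and PDGFRB were well above background on no array. The summed level of the 8, relative to the 75th percentile, was 1.04 to 1.17 in pLUM and 0.767 to 1.36 in pLB. That sum runs across probes and is mostly COL1A1 (mean log2 signal -0.27 in pLUM and -0.83 in pLB, not called). It therefore does not show the rises of CD68 and ACTA2. The part of these markers in the results was not tested. In sorted bulk RNA, fewer cells of a kind and less RNA per cell cannot be told apart.

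The Notch targets and modulators did not move as a block. HEY1, HEYL, NRARP, LFNG and MFNG were called higher in pLB, HES4 and RFNG were called lower, HES1 and HEY2 were not called, and DTX1 was too dim to test. By representative probe, 45.7% of the 17670 tested genes were called, 22.7% higher and 23% lower, and the arrays of the lines did not overlap for 69.1% of genes. Of the 9 tested members 7 were called and 8 did not overlap, with a median log2 difference of 1.98 against 0.04 over all genes. By probe, 10 of 12 were tested, with 6 called higher, 2 lower and 2 neither, and 9 did not overlap. Among all tested probes 45.6% were called, 21.9% higher and 23.7% lower, and 68.1% did not overlap. HEY1 and HEYL passed the filter on dim probes through pLB alone, so that they had to differ, and the counts over tested members are given as a description only.

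**Figure D1:**
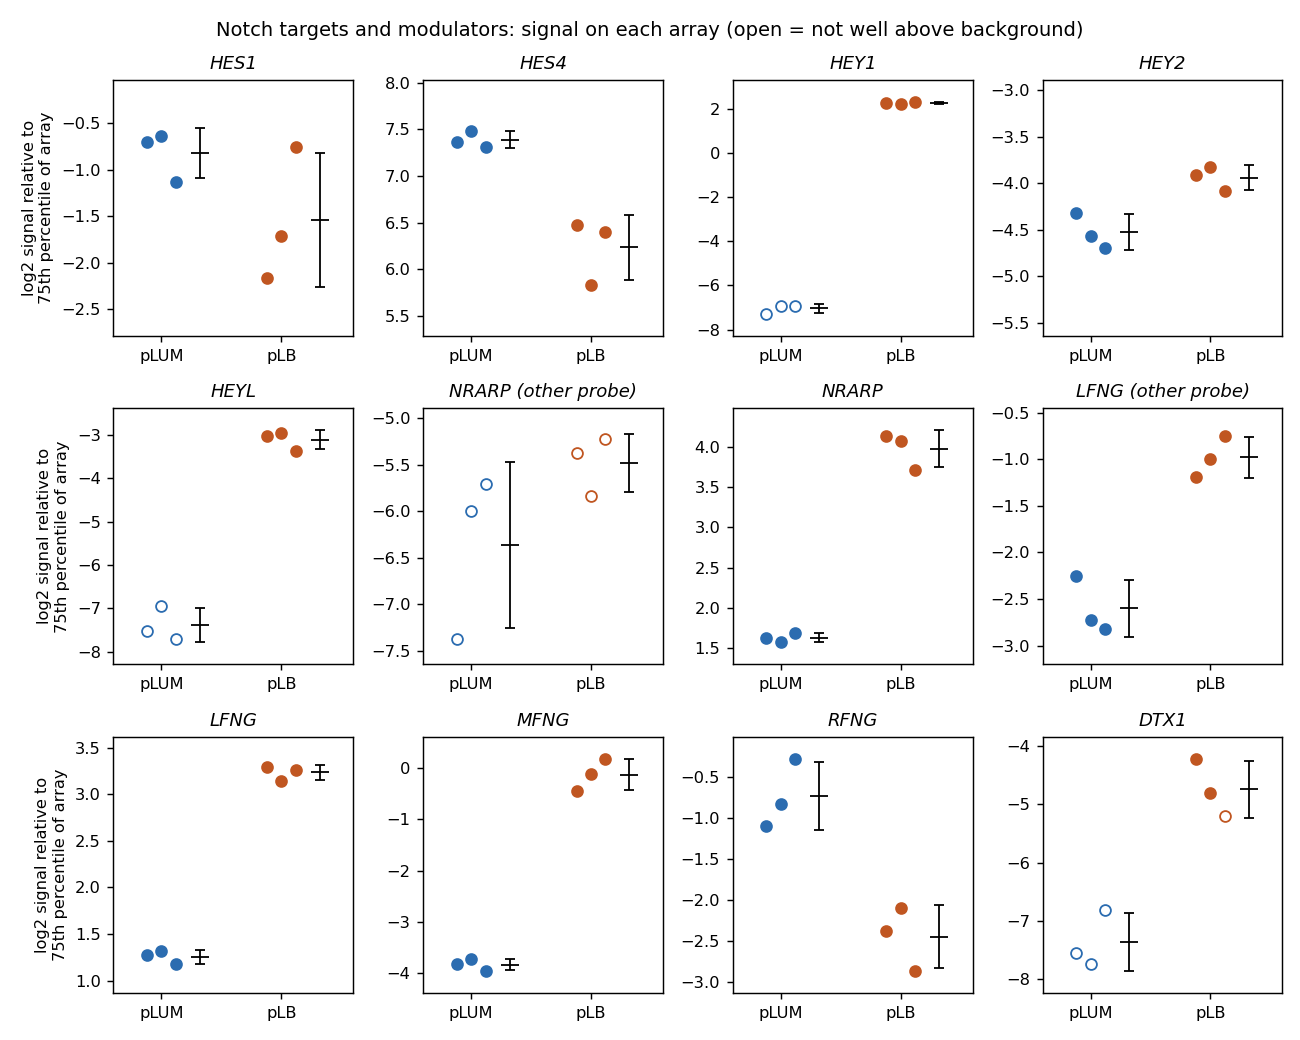
Log2 signal relative to the 75th percentile of the array (y axis, with a range of its own in each panel) for the 12 probes on 3 pLUM and 3 pLB arrays. Points are arrays, with replicates 1 to 3 from left to right, open points were not well above background, and the bar beside them is the mean with SD (n = 3). The lines overlap for HES1 and for the dim NRARP probe and are apart in the other panels.

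The HES genes come first. The upstream sequences of HES1 and HES4 are shown because these related genes share a pair of short strings that few promoters hold, while their transcripts were not both called. RefSeq promoter windows (GRCh38.p14, 250 bases before to 50 after the start site) matched 7 of the 10 genes. HEY1, MFNG and DTX1 were not matched, so that their upstream sequences were not searched. Each line below gives the 140 bases up to the start site, 5′ to 3′ in the direction of the gene, at chr3:194136008-194136147 on the plus strand for HES1 and chr1:1000098-1000237 on the minus strand for HES4. Capitals mark TGTGGGAA, TGGGAA and TTCACAC, the last of which is GTGTGAA read on the other strand. TGGGAA is the core of the motif that RBPJ binds.

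HES1: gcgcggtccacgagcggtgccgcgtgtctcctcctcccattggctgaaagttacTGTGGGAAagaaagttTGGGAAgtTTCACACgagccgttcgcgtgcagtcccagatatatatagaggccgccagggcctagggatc

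HES4: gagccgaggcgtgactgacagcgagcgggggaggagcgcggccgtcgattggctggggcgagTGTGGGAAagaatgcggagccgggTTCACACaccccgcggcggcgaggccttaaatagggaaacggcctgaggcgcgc

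TGTGGGAA lay at -86 to -79 in HES1 and at -78 to -71 in HES4, and TTCACAC lay at -62 to -56 and at -54 to -48. Counted on both strands, TGTGGGAA was present in 1.71% and GTGTGAA in 3% of the 35116 promoters of 300 bases. The pair in this order and orientation was present in 9 of them, or 0.0256%, a count that includes HES1 and HES4 themselves and the neighbors ZNF674 and ZNF674-AS1. This arrangement was chosen for counting after the 2 sequences had been read. The match is a description and was not tied to binding in these cells.

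HES1, a repressor that keeps progenitor cells from differentiating, was measured by a probe for NM_005524 at chr3:193854276-193854463 of hg19. The 60 bases of the probe are placed over 188 bases of the plus strand, that is, with a gap, and read:

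HES1 probe: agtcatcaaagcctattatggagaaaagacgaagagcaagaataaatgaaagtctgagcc

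In the order of the replicate numbers 1, 2 and 3, which holds for all values by array below, its log2 signal was -0.70, -0.64 and -1.13 in pLUM. In pLB it was -2.17, -1.71 and -0.76. pLB replicates 1 and 2 lay below every pLUM array, whereas pLB replicate 3 lay within the pLUM range. The means were -0.82 ± 0.27 in pLUM and -1.54 ± 0.72 in pLB (SD, n = 3), and the difference of -0.72 (standard error 0.36, adjusted p = 0.119 from limma) was not called. Without pLB replicate 3 it was -1.11 (adjusted p = 0.00564 from limma) and was called lower. With slide as a block the fitted difference was -1.34 (adjusted p = 0.029 from limma). That fit sets pLB replicate 1 alone against the pLUM arrays and assumes that this array varies like the others, so that it is no replicated test.

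HES4, a HES1 relative found in humans but not in mice, had a probe for NM_021170 at chr1:934345-934404 of hg19, minus strand. It was at 7.37, 7.49 and 7.31 on the pLUM arrays and at 6.47, 5.83 and 6.40 on the pLB arrays. All pLB arrays lay below all pLUM arrays, and even so the signal stayed bright in pLB, between 37913 and 77165 intensity units. Before scaling, the pLUM arrays were at 78260 to 100788 units, close above the 77165 of pLB replicate 1. That array had the highest 75th percentile, 869, so that its distance from pLUM rests largely on the scaling. The mean fell from 7.39 ± 0.09 to 6.23 ± 0.35 (SD, n = 3), a 2.23-fold decrease (log2 difference -1.15, standard error 0.21, adjusted p = 0.00244 from limma). The decrease was close to the 2-fold threshold and was under it without pLB replicate 2 (-0.95, adjusted p = 0.00727 from limma). It was also under 2-fold with slide as a block (-0.92), a value that again rests on pLB replicate 1 alone.

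The HEY genes encode repressors related to HES proteins, and differed from each other. HEY1 was well above background on every pLB array and on no pLUM array. Its probe, for NM_001040708 at chr8:80676312-80676371 of hg19 on the minus strand, was at -7.28, -6.92 and -6.92 in pLUM and at 2.27, 2.21 and 2.32 in pLB. The groups were far apart, with an SD of 0.21 in pLUM and 0.06 in pLB. HEY1 was at least 199.8-fold higher in pLB (limma, adjusted p = 2e-07, which is no support of its own because the probe passed the filter through pLB alone). For such a bound, each dim array was given its lowest signal that was well above background (or the signal of the probe itself, if higher), and the mean of these was set against the mean of the bright line. Normexp background correction was run with an offset of 50 intensity units added to every spot, which draws together signals of that size or less. With it the bound for HEY1 was 30.5-fold.

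HEYL followed the same pattern at lower signal. Its probe, for NM_014571 at chr1:40089841-40089900 of hg19 on the minus strand, was at -7.52, -6.94 and -7.69 in pLUM, where no array was well above background. In pLB it was at -3.03, -2.96 and -3.37, well above background on all 3 arrays. HEYL was at least 4.78-fold higher in pLB (limma, adjusted p = 8.32e-06, with the same restriction as for HEY1). The call was lost with normexp background correction, where the fitted log2 difference was 0.51 (adjusted p = 0.274 from limma) and the bound 1.39-fold. The pLB signals of HEYL, 43.4 to 107 units, were of about the size of the normexp offset.

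HEY2 was dim in both lines but well above background on all 6 arrays. Its probe, for NM_012259 at chr6:126082004-126082063 of hg19 on the plus strand, was at -4.32, -4.56 and -4.70 in pLUM and at -3.92, -3.82 and -4.08 in pLB. Each pLB array exceeded each pLUM array, by a small margin. HEY2 was 1.5-fold higher in pLB (limma, log2 difference 0.59, standard error 0.18, adjusted p = 0.0218), which stayed under the 2-fold threshold. The direction turned with normexp background correction (-0.20, adjusted p = 0.639 from limma). That value was close to the median of all genes in that setting, -0.21. The signals of HEY2, 21.8 to 57.5 units, were below or near the normexp offset of 50 units, so that the turn is no finding about HEY2 itself.

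The upstream 140 bases of HEYL (chr1:39639644-39639783 of GRCh38.p14, minus strand) are set beside those of NRARP (chr9:137302272-137302411, minus strand), since both genes were called higher in pLB and the strings marked in HES1 and HES4 are fewer or absent there. Capitals mark TGGGAA.

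HEYL: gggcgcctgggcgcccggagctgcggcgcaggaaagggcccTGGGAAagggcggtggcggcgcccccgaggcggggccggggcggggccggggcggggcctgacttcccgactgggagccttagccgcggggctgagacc

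NRARP: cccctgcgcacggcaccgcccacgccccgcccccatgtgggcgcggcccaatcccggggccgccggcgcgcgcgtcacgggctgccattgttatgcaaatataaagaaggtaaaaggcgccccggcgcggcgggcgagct

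HEYL held TGGGAA at -99 to -94 and, in the wider window, GTGGGAA on the other strand at -178 to -172. HEY2 held GTGGGAA at -4 to 3 and on the other strand at -213 to -207. LFNG held only TGGGAA, and the windows of NRARP and RFNG held none of these strings, which says only that the letters are absent from the 300 bases searched. TGGGAA was present in 24% and GTGGGAA in 6.25% of all promoters on either strand, and TGGGAA lies within GTGGGAA, which lies within TGTGGGAA, so the matches are nested.

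NRARP, the ankyrin repeat protein that limits Notch output, was higher in pLB. The representative probe, for NM_001004354 at chr9:140194123-140194182 of hg19 on the minus strand, was at 1.63, 1.58 and 1.69 in pLUM and at 4.14, 4.07 and 3.71 in pLB. The lines did not overlap, and pLB replicate 3 was the lowest of its line. The mean rose from 1.63 ± 0.06 to 3.97 ± 0.23 (SD, n = 3), a 5.06-fold increase (log2 difference 2.34, standard error 0.18, adjusted p = 3e-05 from limma). A further NRARP probe starts 2116 bases away at chr9:140196239-140196298 and is shown because it gave no usable signal.

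NRARP dim probe: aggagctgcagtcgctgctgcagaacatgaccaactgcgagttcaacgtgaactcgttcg

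On no array of either line did it reach well above background, with values of -7.37, -6.00 and -5.71 in pLUM and -5.38, -5.84 and -5.23 in pLB, and was not tested. The increase of NRARP therefore rests on 1 of its 2 probes.

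The Fringe genes split by member. LFNG, lunatic fringe, was measured by probes that start 769 bases apart and both rose. The representative probe, for NM_001040167 at chr7:2567971-2568030 of hg19 on the plus strand, was at 1.27, 1.32 and 1.17 in pLUM and at 3.29, 3.15 and 3.26 in pLB. These arrays were tightly grouped in each line, with SDs of 0.07 and 0.08, and LFNG was 3.94-fold higher in pLB (log2 difference 1.98, standard error 0.15, adjusted p = 3.19e-05 from limma). The other probe, for NM_001040168 at chr7:2568740-2568799, was at -2.25, -2.73 and -2.82 in pLUM and at -1.19, -1.0 and -0.75 in pLB. It was 3.08-fold higher in pLB without overlap (log2 difference 1.62, standard error 0.22, adjusted p = 0.00049 from limma), and with normexp background correction it fell under the 2-fold threshold, at 0.95.

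MFNG, manic fringe, showed the largest difference among members that were well above background in both lines. Its probe, for NM_002405 at chr22:37865325-37865384 of hg19 on the minus strand, is printed in 10 spots on each array, of which 9 or 10 were kept. The log2 signal was -3.82, -3.72 and -3.95 in pLUM and -0.44, -0.11 and 0.17 in pLB. The pLUM arrays were all low and the pLB arrays all high, and single spots ranged from 28.4 to 48.3 intensity units in pLUM and from 489 to 677 in pLB, so that not even the spots overlapped. MFNG was 13.0-fold higher in pLB (log2 difference 3.71, standard error 0.20, adjusted p = 6.89e-06 from limma). With normexp background correction the log2 difference was 2.20 and was still called.

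RFNG, radical fringe, moved the other way. Its probe, for NM_002917 at chr17:80006638-80006920 of hg19 on the minus strand, is placed with a gap, its 60 bases covering 283 bases of the genome, and is shown as the only Fringe probe with a decrease.

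RFNG probe: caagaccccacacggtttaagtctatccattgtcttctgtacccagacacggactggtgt

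It was at -1.09, -0.83 and -0.28 in pLUM and at -2.38, -2.10 and -2.86 in pLB. Every pLB array was below every pLUM array, and both lines were more spread than for LFNG, with SDs of 0.42 and 0.39. RFNG was 3.29-fold lower in pLB (log2 difference -1.72, standard error 0.28, adjusted p = 0.00145 from limma).

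DTX1, the Deltex gene, was near the limit of the arrays. Its probe, for NM_004416 at chr12:113535518-113535577 of hg19 on the plus strand, was at -7.55, -7.73 and -6.80 in pLUM, well above background on none, and at -4.22, -4.80 and -5.19 in pLB, well above background on replicates 1 and 2. The pLB arrays lay above the pLUM arrays, but with 2 arrays past the filter DTX1 was not tested, and the bound was 1.56-fold higher in pLB. With normexp background correction no fold was left, the bound being -0.21 on the log2 scale. The pLB signals of DTX1, 12.3 to 46.6 units, were below the normexp offset. Without the filter on dim probes DTX1 was called higher (log2 difference 2.62, adjusted p = 0.000985 from limma), although only 2 of 6 arrays were well above background.

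**Figure D2:**
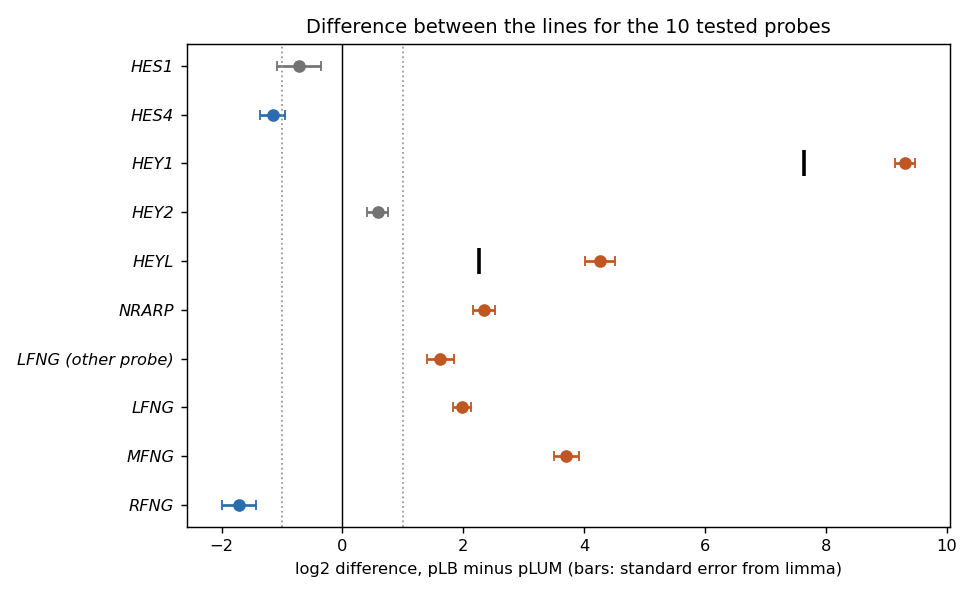
Log2 difference, pLB minus pLUM, for the 10 tested probes (points, with the standard error from limma as bars). Orange is called higher, blue called lower and grey not called, dotted lines mark 2-fold, and black ticks mark the lower bound for HEY1 and HEYL, which were not well above background in pLUM. HEY1 at 9.31 stands to the right of all others, and HES4 at -1.15 and RFNG at -1.72 stand past the left dotted line.

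Slide 1 held pLB replicate 1 beside the pLUM arrays, and slide 2 held pLB replicates 2 and 3, so that within slide 1 the comparison has a single pLB array and no replicate of it. There the log2 difference was 9.31 for HEY1, 4.36 for HEYL, 2.51 for NRARP, 2.04 for LFNG and 3.39 for MFNG. The arrays of slide 2 against the same pLUM arrays gave 9.31, 4.21, 2.26, 1.95 and 3.86 for these genes. RFNG was -1.65 within slide 1 and -1.75 across slides, and HEY2 was 0.61 and 0.57. The HES genes were less even, with HES1 at -1.34 within slide 1 and -0.41 across slides, and HES4 at -0.92 and -1.27. Both sets of values use the same pLUM arrays, and HEY1 and HEYL had to be higher in both, so that a shared direction is no independent support.

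**Figure D3:**
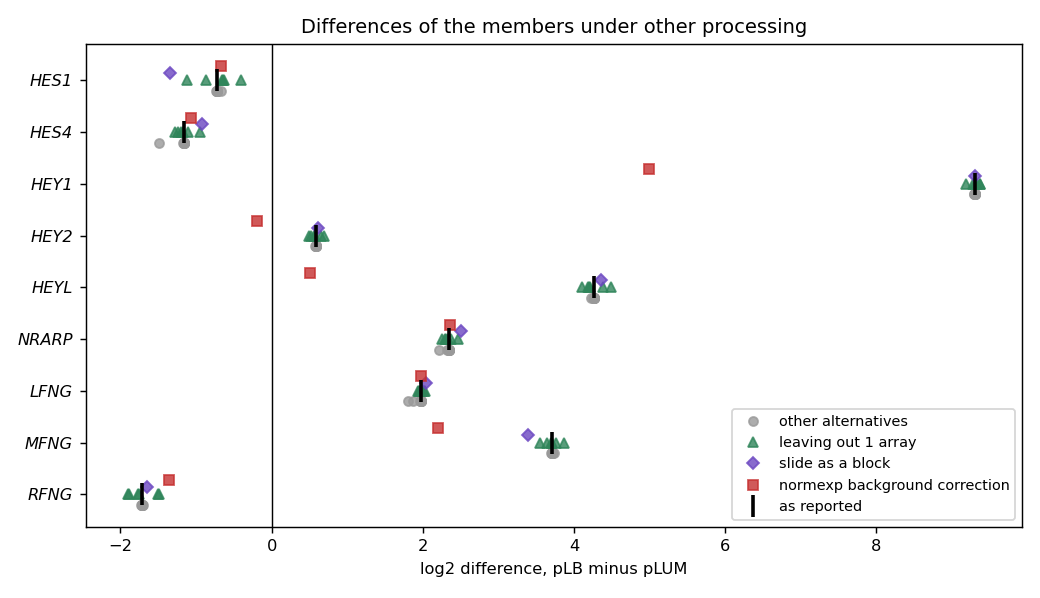
Log2 difference, pLB minus pLUM, of the 9 tested genes by representative probe as reported (black ticks), with 1 array left out (green triangles), with slide as a block (purple diamonds), with normexp background correction (red squares) and with the other alternatives (grey circles). Red squares lie left of the ticks for HEY1, HEYL, HEY2 and MFNG, whereas NRARP and LFNG stay between 1.80 and 2.51 throughout.

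The other genes of the pathway give the setting in which these targets and modulators were read. Of 59 such genes on the array 52 were tested, and 19 were called higher, 7 lower and 26 neither. JAG1, TLE4 and SNAI2 passed the filter on dim probes through pLB alone and had to be higher there. The share called was 50%, near the 45.7% of all genes, of which 22.7% were higher and 23% lower, and the median log2 difference was 0.54. The list was drawn up by role, with earlier results of these data known, and its counts are a description. NOTCH1, JAG1 and SNAI2 are among the markers that the study used to describe these lines and are not independent evidence of a direction.

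Of the 4 receptors, NOTCH1 (2.08) and NOTCH4 (2.17) were called higher in pLB and 0 lower, and NOTCH2 (0.45) and NOTCH3 (0.92) were not called. All log2 differences in this account of the pathway are pLB minus pLUM. The NOTCH2 probes differed in sign, the other one being at -0.56. Of 7 ligand genes 5 were tested and 4 were called higher, namely JAG1, at least 204-fold, DLL1 (3.31), JAG2 (1.18) and DLK2 (3.32). DLK1 (0.93) stayed under the 2-fold threshold and was not called. DLL3 and DLL4 were well above background on no array.

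Among the enzymes that act on receptor or ligand, ADAM10 (3.0) and ADAM17 (1.20), which shed the receptor ectodomain, and the gamma-secretase subunits NCSTN (1.19) and APH1B (2.49) were called higher, 4 of 8 proteases with 0 lower. POFUT1 (1.18), which adds the O-fucose that Fringe enzymes extend, was called higher, and POGLUT1 (-1.45), which adds O-glucose, was called lower. Of 4 ubiquitin ligases that act on ligands, MIB2 (-1.28) was called lower and 0 were higher.

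In the nucleus, RBPJ did not pass the 2-fold threshold (0.58, adjusted p = 0.0197 from limma), and of 6 tested genes of its activating complex the acetyltransferase gene KAT2B (-1.65) was the one called by its representative probe. Probes of the coactivator genes differed. For MAML1 the representative probe was at -0.35, and a dimmer probe was called higher (1.04). For MAML3 the representative probe was at -0.14, and a dimmer probe was called lower (at least 4.78-fold). That dimmer MAML3 probe passed the filter on dim probes through pLUM alone and had to be lower. Of 10 corepressor genes, CIR1 (1.18) and TLE4 (at least 12.7-fold) were called higher, and TLE2 (-2.11) and TLE3 (-1.35) were called lower. TLE1 (-0.08) was not called. The TLE genes form the Groucho family that HES proteins recruit, and they did not move together. A dimmer TLE4 probe was at -0.80 and was not called. The other tested TLE4 probes, the representative among them, passed the filter on dim probes through pLB alone and had to be higher. Of 7 tested genes for inhibitors and receptor turnover, the Deltex relatives DTX3L (1.55) and DTX3 (-1.18) were called, in opposite directions.

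The remaining HES genes were as divided as HES4 and the HEY genes. HES2 (3.60) was called higher in pLB, by 3 of its 3 probes. The HES2 probe with a fitted 5.40 passed the filter on dim probes through pLB alone and had to be higher. HES6 (-1.44), which opposes HES1, was called lower by 3 of its 4 probes, the other being at -0.06. HES3 was well above background on no array, and HES5 and HES7 on too few to test. Of other genes known to respond to Notch, MYC (2.53), CCND1 (1.40), SOX9 (2.79) and SNAI2 (at least 27.1-fold) were called higher. Each of these 4 genes has regulators besides Notch.

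**Figure D4:**
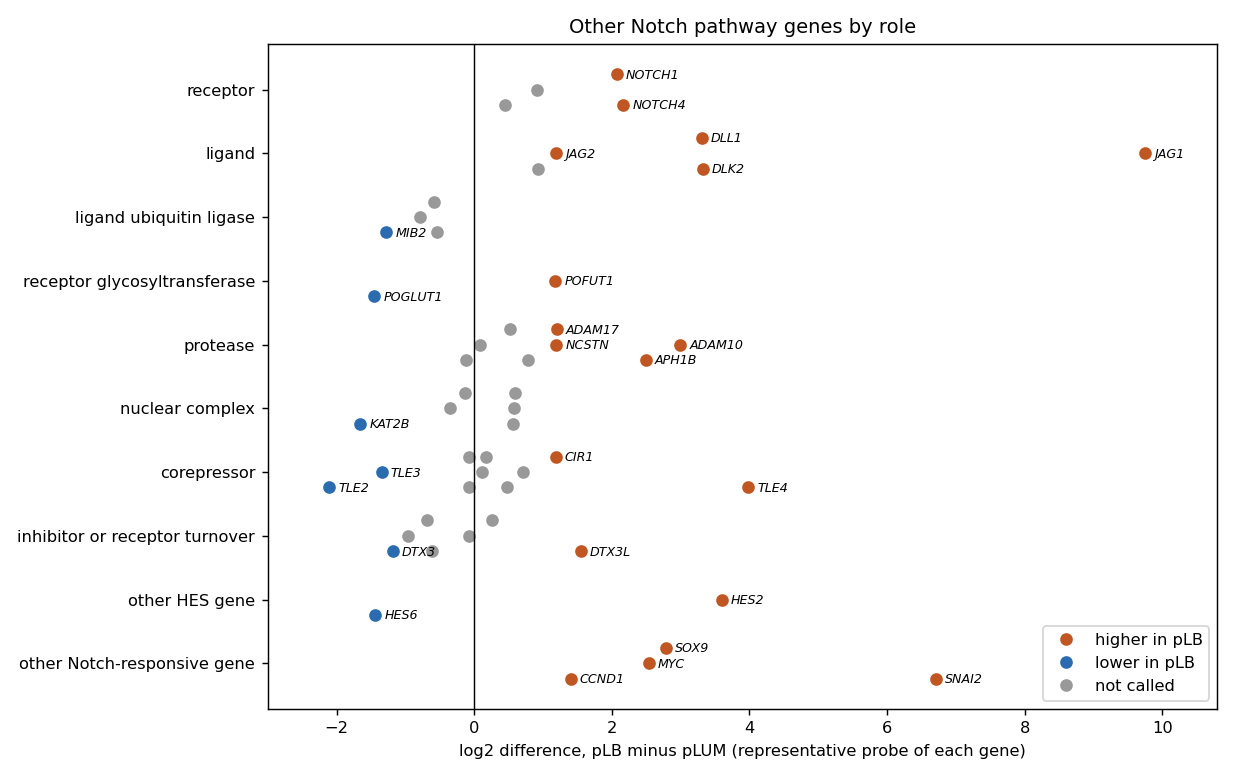
Log2 difference, pLB minus pLUM, of the 52 tested pathway genes outside the 10 described above, by representative probe and by role. Names are given for called genes, in orange for the 19 called higher and in blue for the 7 called lower, with JAG1 farthest right at a fitted 9.74 and vertical offsets within a role serving only to separate points.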

How the data were processed

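RNA of 3 pLUM and 3 pLB samples was measured on 6 Agilent arrays of a single dye. The deposited values are spot intensities on a linear scale, which the authors obtained with Agilent Feature Extraction 10.10.1.1 after background correction within the array, with positions in hg19, and the submitters' processing notes also name Partek. From these intensities, control spots and 296 to 387 spots per array with an outlier flag were removed, log2 signals were set against the 75th percentile of each array, and spots of a probe were averaged. Between 21285 and 22775 probes per array were well above background. The number of arrays limits the precision. The test was limma's lmFit and eBayes (version 3.58.1, R 4.3.3), without a block, and p-values were Benjamini-Hochberg adjusted over all tested probes.

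All 10 members and all their probes are named, with the receptors, the ligands, RBPJ, the other HES genes and any called gene of the pathway list, except 1 that is not reported here and was left out of the list. Members and lists were chosen with earlier results of these data known. In total, 19 alternatives were tried, covering background, scaling, filters, thresholds, the methods' t-test, the probe rule, slide and replicate blocks, and leaving out each array. The normexp alternative added an offset of 50 units, which flattens differences between dim signals. Promoter windows are from RefSeq (GRCh38.p14), and no position was carried between builds. The E plus P treated T47Dco cells were not analysed here.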

Additional observations from a re-analysis of the deposited data

How the results depend on the processing

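Across 169 repeats of the 9 member differences, 162 kept direction and side of the thresholds. HEY1, LFNG, MFNG, NRARP and RFNG kept both wherever a value could be had. HEY1 and HEYL passed the filter on dim probes through pLB alone. The settings without a fold threshold or with unadjusted p reuse the main estimates and cannot lose a call. These counts are therefore a description only. HEY2 turned to -0.20 with normexp background correction and passed without a fold threshold. HEYL did not pass with normexp (0.51), HES4 did not without pLB replicate 2 (-0.95), and HES1 passed without pLB replicate 3 (-1.11). With slide as a block HES4 was at -0.92 and HES1 at -1.34, values for which replicate 1 is the sole pLB array. The cause was not tested.

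Members called higher fell from 5 to 3 when a probe had to exceed background on all 6 arrays, because HEY1 and HEYL were then not tested, and numbered 5 with each array left out. Members called lower numbered 1 to 3 with each array left out, 1 without pLB replicate 2 and 3 without pLB replicate 3. Other pathway genes called lower rose from 7 to 13 without a fold threshold, and ranged from 6 to 9 with each array left out, those called higher from 19 to 20. Over all probes, 5054 were called higher and 3004 with normexp, which moved the median of all genes to -0.21 from 0.04. With each array left out, 4994 to 5122 were called higher and 5106 to 6159 lower.

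Arrays with the same replicate number did not deviate together (r = -0.27, -0.10 and -0.22 for numbers 1, 2 and 3), and 0 correlated best with their own number, so the numbers are no pairing. With the replicate block 5 members were called higher and 2 lower, as without it, and over all probes 4986 higher and 5383 lower. Signals near background limit DTX1, HEYL and HEY2.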
